A study of Sus scrofa with 24 samples.

Results

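Ion channel genes of the pig vein wall were followed after an arteriovenous haemodialysis graft, a conduit sewn between an artery and a vein, was placed. They were taken by gene symbol: potassium channel genes (KCN), voltage-gated calcium channel genes (CACN), sodium channel genes (SCN), TRP channels of the C, M and V families, chloride channel genes (CLCN, CLIC), intracellular calcium release channels (RYR, ITPR) and anoctamins (ANO). The array carried 58 such probes for 42 genes, out of 43603 probes and 5269 gene symbols in all. No probe bore an SCN or CLCN symbol. For a gene with several probes the brightest was used, and 32 of the 42 genes had 1 probe. The probe used for CACNA1D was named only in its description, and that of KCNE1 was described as a KCNE1-like locus.

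Total RNA came from 3 vein sites: the anastomosis of vein and graft, the vein downstream of it, and the external jugular vein as the control. With 4 biological replicates for each site on day 5 and on day 14 there were 6 groups and 24 samples, on 16 Agilent 2-colour pig arrays. Breed, age and sex were not given in the sources used here, nor whether the 3 sites of a replicate number were of the same animal. Every jugular control was labelled with Cy3 and every anastomosis and downstream sample with Cy5, so dye and site cannot be told apart in a comparison with the control. Since the samples were pieces of whole vein wall, fewer cells of a type and less RNA per cell cannot be told apart either.

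Potassium channels let potassium leave a smooth muscle cell and so hold its membrane potential negative, which keeps voltage-gated calcium channels shut and the vessel relaxed. When the membrane depolarises, calcium enters through those channels, and ryanodine and inositol trisphosphate receptors release more of it from the sarcoplasmic reticulum, which starts contraction. Smooth muscle cells of an injured vessel are known to leave the contractile state, and their channel genes change as part of that. Auxiliary subunits, such as the beta and KCNE proteins of potassium channels or the beta and alpha-2-delta proteins of calcium channels, set how a pore opens and how many pores reach the membrane.

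The share of probes well above background, a flag of the scanner software, ran from 56.9% to 80.2% per sample and stands in for depth on an array. It was 56.9% to 73.9% in replicates 1 and 2, and 70.1% to 80.2% in replicates 3 and 4, which were quantified with another protocol of that software. Control replicate 2 of day 14 stood apart: the median level of 9 contractile smooth muscle genes was 11.91 there (log2 intensity) and 13.89 to 14.22 in the other 3 controls of that day, while the median of 6 adipocyte genes was 15.57 against 7.75 to 10.01. Anastomosis replicate 3 of day 14 had an adipocyte median of 15.29, against 8.75 to 10.71 in the other 3 samples of its group. Downstream replicate 2 of that day had 14.998 and downstream replicate 4 had 13.51, against 7.48 and 10.60 in replicates 1 and 3. The part of fat tissue in the results was not tested. Values without control replicate 2 or anastomosis replicate 3 of day 14 are given where they change a call. These downstream samples were not left out singly, only along with the other samples of their replicate number.

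A few probe sequences show how close some of these genes are on the array. The RYR1, RYR3 and a dim RYR2 probe overlap in a nearly shared stretch. Each is 60 bases long and is given 5′ to 3′, with capitals at the bases that differ from the RYR2 probe where both overlap.
RYR2, dim probe: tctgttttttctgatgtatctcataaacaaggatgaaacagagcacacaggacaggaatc
RYR3: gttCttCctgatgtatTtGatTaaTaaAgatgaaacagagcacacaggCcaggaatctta
RYR1: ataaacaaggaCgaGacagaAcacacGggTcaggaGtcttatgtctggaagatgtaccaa
The RYR3 probe matched the RYR2 probe at 49 of 57 overlapping bases (86%), and the RYR1 probe matched it at 32 of 38 (84.2%). The dim RYR2 probe was well above background in 13 of 24 samples, the RYR3 probe in 24 and the RYR1 probe in 11. Whether RNA of 1 gene bound the probe of another was not tested.

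Tests were run on the 33 of 42 genes that 4 or more samples showed well above background; 20 of these were so in all 24 samples. A difference was called at an adjusted p under 0.05, with p-values adjusted over all 36140 probes tested. Among the 9 genes below that level were KCNJ13 (2 samples), KCNQ1 (3), KCNA7 (1), and KCNK10, KCNH6, KCND3, TRPC4 and TRPC5, whose probes taken by symbol were not well above background in any sample. By the symbol rule TRPM7 was thus the 1 TRP gene tested, and no KCNK gene was. Probes that only their description ties to TRP or KCNK channels are not members; a probe described as KCNK member 10 was well above background in 21 of 24 samples and differed from control by -0.05 to 0.05, without a call. Of 40 channel genes long described in vessels, 19 had a probe by the symbol rule and 17 were tested; KCNMB1, CACNA1C, TRPC6, ITPR2 and ANO1 are among those not analysed here.

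At day 5 the anastomosis differed from the jugular control in 9 of the 33 genes tested (27.3%), against 20.0% of all probes tested: 2 rose (9.75% of all probes did) and 7 fell (10.3% of all probes did). The largest falls were of KCNAB1, RYR2 and KCNA5, and the genes that rose were KCNE3 and KCNB2. At day 14, 4 of 33 differed (12.1%, against 8.87% of all probes): CACNA1D rose (4.77% of all probes did), and KCNAB1, RYR3 and ANO6 fell (4.10% of all probes did). Downstream at day 5, 4 of 33 fell (12.1%, against 8.37% of all probes in either direction, 4.98% lower and 3.40% higher): KCNAB1, RYR2, KCNQ5 and ANO6. Downstream at day 14 limma called 0 of 33, against 0.913% of all probes (0.645% higher and 0.268% lower), with 6 at an unadjusted p under 0.05. In all, 12 genes were called in at least 1 comparison and 21 were called in none. When the model was fitted to just the groups compared, 14 genes were called for the anastomosis on day 5, 4 downstream on day 5 and 0 on day 14, where CACNA1D then had an adjusted p of 0.0988. Of all 36140 probes that fit called 10433 for the anastomosis and 3693 downstream on day 5. On day 14 it called 62 of them for the anastomosis and 0 downstream.

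**Figure D1:**
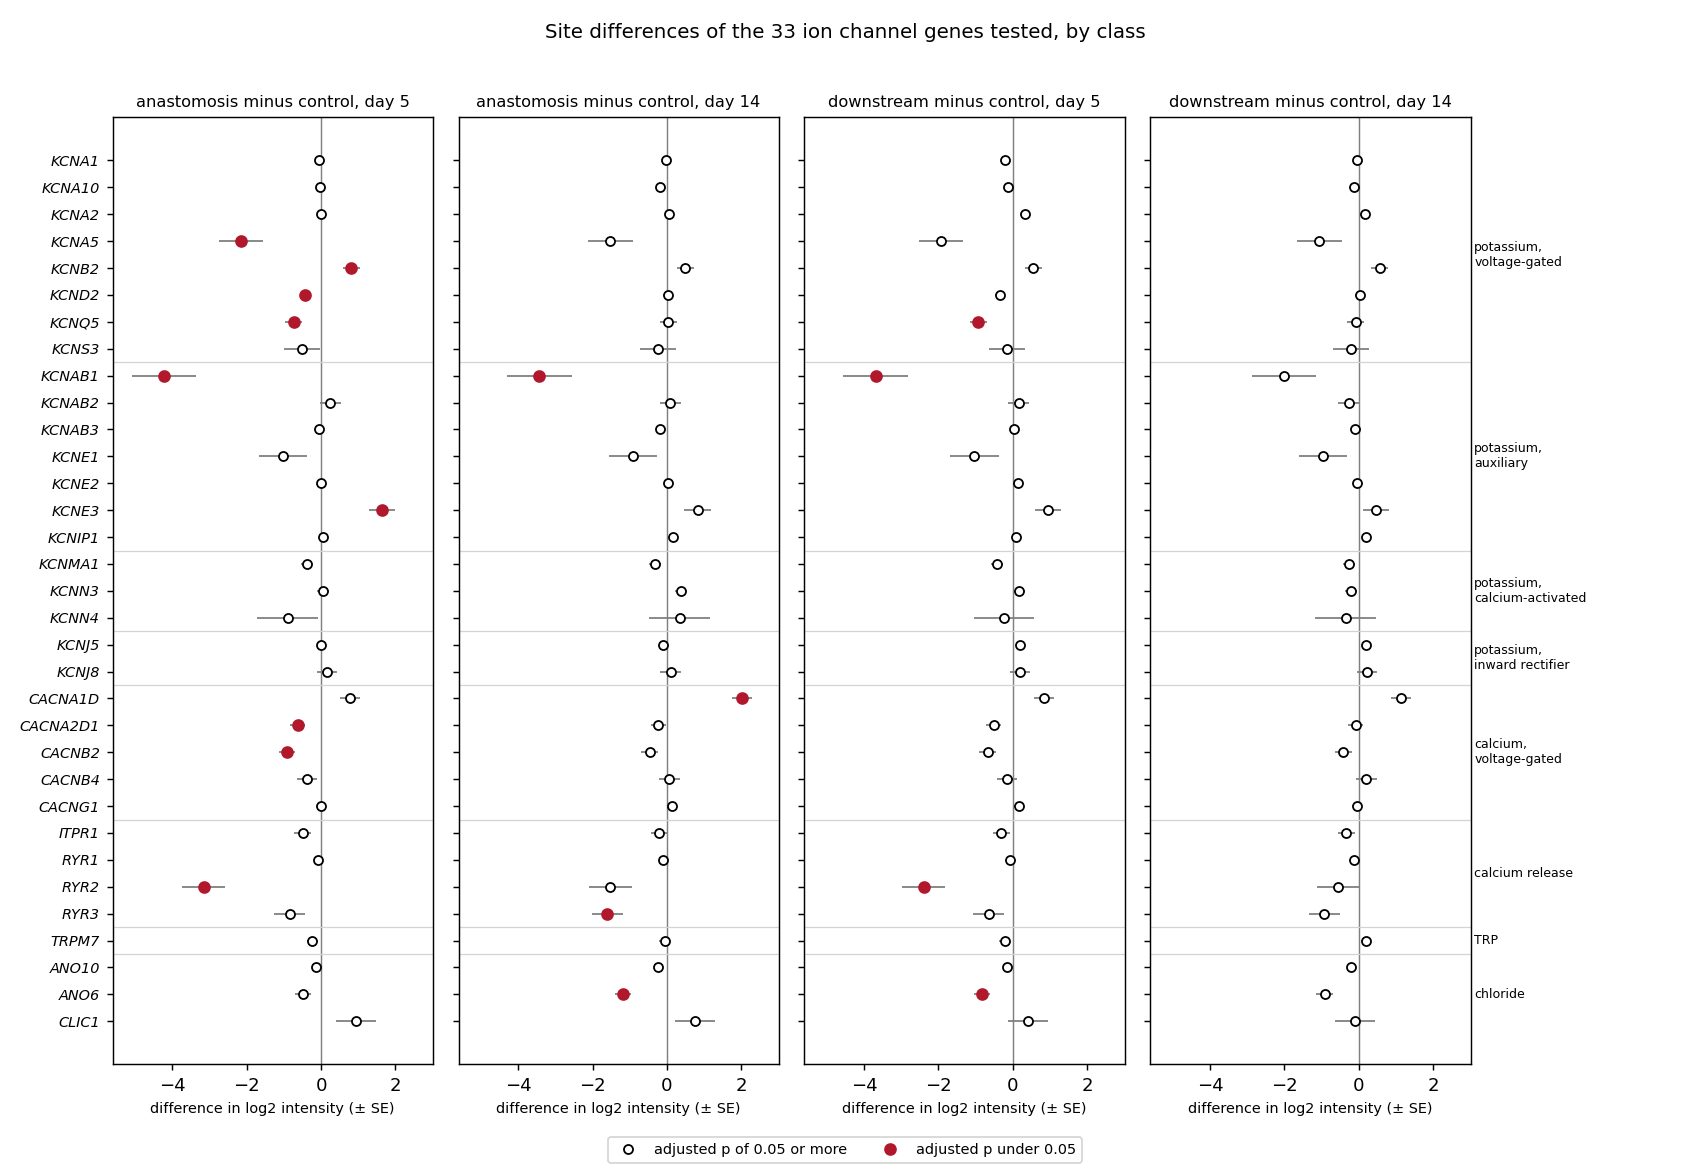
Differences in log2 intensity between site and control (x axis, ± SE) for the 33 ion channel genes tested (rows, grouped by class), in 4 comparisons of 4 against 4 samples. Filled points passed an adjusted p of 0.05: 9 genes for the anastomosis at day 5, 4 at day 14, 4 downstream at day 5 and 0 downstream at day 14.

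The median difference of the 33 genes between anastomosis and control was -0.14 at day 5 and -0.06 at day 14, and that between downstream vein and control was -0.17 at day 5 and -0.11 at day 14, beside a median of 0.01 over all probes in each of these. With each channel centred on its median in place of loess, the median over all probes moved to 0.12, 0.18, 0.12 and 0.21 in the same order, and the calls of all probes leaned to higher. Under that setting 81.7% of all calls between anastomosis and control at day 5 were higher, against 48.7% with loess; at day 14 it was 75.9% against 53.8%, and downstream at day 5 84.1% against 40.6%. Among the channel genes it called 5 higher and 6 lower at the anastomosis on day 5, and 4 higher and 8 lower on day 14. Of all 36140 probes it called 12367 there on day 5 (10110 higher) and 14827 on day 14 (11248 higher).

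Among the voltage-gated potassium channel genes, KCNA5 stood out. It encodes Kv1.5, a delayed rectifier of vascular smooth muscle. Its log2 intensity in replicates 1 to 4 was 9.79, 9.67, 9.74 and 9.98 at the anastomosis on day 5, and 11.50, 11.50, 12.66 and 12.08 in the controls of that day. The groups did not overlap, and the anastomosis samples were 4.41-fold lower (log2 difference -2.14 ± 0.59 SE, adjusted p = 0.0205). Downstream on day 5 the values were 11.19, 8.98, 9.16 and 10.70, which also lay below all 4 controls, with a log2 difference of -1.93 that did not pass the test (adjusted p = 0.0587). It was called without control replicate 2 of day 14, which enters the shared estimate of the spread (adjusted p = 0.0292). On day 14 the anastomosis had 9.79, 10.26, 10.04 and 8.99, and the downstream vein 10.97, 10.14, 9.55 and 10.24, against 10.94, 9.50, 12.82 and 11.89 in the controls. The control of replicate 2 was the lowest of its group, and the groups overlapped (adjusted p = 0.125 for the anastomosis and 0.429 for the downstream vein). Without that control sample the anastomosis difference on day 14 was -2.18 (adjusted p = 0.0259).

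The second KCNA5 probe did not show the fall. It was well above background in all 24 samples and differed between anastomosis and control by -0.23 ± 0.13 on day 5 (adjusted p = 0.238) and by -0.24 ± 0.13 on day 14 (adjusted p = 0.261). The call of KCNA5 rests on the brighter probe. The day 5 call was also lost when replicate 1, 3 or 4 was left out (differences of -2.28 to -1.88 over the leave-outs, adjusted p up to 0.108). With median centring the day 5 call was lost too.

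KCNQ5 encodes Kv7.5, a slowly opening channel that helps set the resting potential of vascular smooth muscle. On day 5 it had 7.37, 6.98, 6.32 and 6.35 at the anastomosis and 6.85, 6.96, 6.27 and 6.15 downstream, against 7.76, 7.12, 7.85 and 7.23 in the controls. All downstream samples lay below all controls, and KCNQ5 was 1.91-fold lower there (-0.93 ± 0.23, adjusted p = 0.0265). The anastomosis samples overlapped the controls but were lower in 4 of 4 replicates (-0.73 ± 0.23, adjusted p = 0.0366). The anastomosis call was lost without replicate 1, 3 or 4 (-0.93 to -0.47 over the leave-outs, adjusted p up to 0.256) and the downstream call without replicate 3 or 4 (-1.19 to -0.71, adjusted p up to 0.198). With the processed signals of the scanner software, without a block for replicates, or with just the groups compared, both calls were lost. The anastomosis call was also lost with median centring and without background correction. On day 14 neither difference was called (0.03 for the anastomosis and -0.09 downstream). The day 14 controls, at 6.37, 7.29, 6.40 and 6.32, were mostly below those of day 5, and the change of the difference between days did not pass the test (0.76 for the anastomosis, adjusted p = 0.534, and 0.84 downstream, adjusted p = 0.65).

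KCND2, which encodes the rapidly inactivating channel Kv4.2, was measured near background. Its probe was well above background in 5 of 24 samples, of which 3 were controls of day 5. It passed the filter of 4 samples only by way of these controls, the group where it was high. The filter thus favoured a call against them, which is no independent support for a fall. On day 5 its probe was not well above background in any of the 4 anastomosis samples and was so in 3 of 4 controls (6.21, 6.04, 6.09 and 5.99 at the anastomosis, against 6.48, 6.26, 6.64 and 6.68 in the controls, with no overlap). The anastomosis samples were at least 1.32-fold lower (adjusted p = 0.0214), a call lost without replicate 1, 3 or 4 (differences of -0.50 to -0.34, adjusted p up to 0.181). This bound sets the brighter group's mean against the dimmer group's mean with each of its values raised, where needed, to the lowest signal that was well above background on that array.

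KCNB2, the gene of the delayed rectifier Kv2.2, was the voltage-gated potassium channel gene that rose. It had 8.12, 7.30, 7.51 and 7.35 at the anastomosis on day 5, against 7.07, 6.68, 6.73 and 6.55 in the controls, of which 3 were well above background. The groups did not overlap, and the difference was 0.81 ± 0.23 (1.76-fold, adjusted p = 0.0224), a call lost without replicate 1, 3 or 4 (0.74 to 0.88, adjusted p up to 0.11). The other 3 site differences of KCNB2 were 0.49 for the anastomosis on day 14, 0.55 downstream on day 5 and 0.56 downstream on day 14, none of which passed the test. Of the other 4 voltage-gated genes tested, KCNA1, KCNA2 and KCNA10, which encode further Kv1 pores, differed from control by at most 0.31 in size in the 4 comparisons (KCNA2 downstream on day 5, adjusted p = 0.119). KCNS3, the gene of a subunit that forms no channel of its own but modifies Kv2 pores, differed by -0.50 to -0.17, with an SE of 0.49.

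The auxiliary subunits of potassium channels held the largest change of all members. KCNAB1 encodes Kv beta-1, a cytoplasmic subunit that binds Kv1 pores and speeds their inactivation. On day 5 its log2 intensity was 8.78, 10.18, 10.03 and 8.42 at the anastomosis and 12.54, 8.78, 8.81 and 9.41 downstream, against 13.57, 14.49, 13.70 and 12.54 in the controls. All anastomosis samples lay far below all controls, and 3 of 4 downstream samples did too, while downstream replicate 1 was level with the lowest control. The anastomosis was 18.7-fold lower (-4.23 ± 0.86, adjusted p = 0.00403) and the downstream vein 12.9-fold lower (-3.69 ± 0.86, adjusted p = 0.0214).

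On day 14 KCNAB1 was at 9.97, 10.17, 7.99 and 8.51 at the anastomosis, against 13.37, 10.52, 13.32 and 13.14 in the controls. The groups did not overlap, although control replicate 2 was close to the anastomosis samples, and the anastomosis was 10.8-fold lower (-3.43 ± 0.86, adjusted p = 0.0259). Downstream on day 14 the values were 13.40, 9.66, 9.39 and 9.86, with replicate 1 at the level of the controls, and the difference of -2.01 did not pass the test (adjusted p = 0.285). The anastomosis call on day 14 was lost without replicate 3 or 4 (-4.45 to -2.79 over the leave-outs, adjusted p up to 0.231) and without anastomosis replicate 3 alone (-3.11, adjusted p = 0.0569). The downstream call on day 5 was lost without replicate 2, 3 or 4 (differences of -4.58 to -3.02 over the leave-outs, adjusted p up to 0.161), whereas the anastomosis call on day 5 held in all 4 leave-outs (-4.41 to -4.04).

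The other beta subunit genes were not called in any comparison. KCNAB2, the gene of Kv beta-2, averaged 11.49 ± 0.30 at the anastomosis and 11.40 ± 0.53 downstream on day 5, against 11.24 ± 0.55 in the controls (SD, n = 4 each), and its 4 site differences ran from -0.27 to 0.25. KCNAB3 differed from control by -0.19 to 0.02.

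KCNE3 encodes a small single-pass subunit that holds KCNQ1 channels open and also pairs with Kv3 and Kv4 pores. It had 11.16, 11.08, 9.60 and 10.08 at the anastomosis on day 5, against 8.64, 9.13, 8.95 and 8.63 in the controls, so that every anastomosis sample lay above every control. It rose 3.12-fold (1.64 ± 0.35, adjusted p = 0.00526), and the call held in all 4 leave-outs. On day 14 the anastomosis samples (10.05, 9.30, 9.02 and 9.77) still lay above all controls (8.56, 8.65, 8.90 and 8.75), but the difference of 0.82 did not pass the test (adjusted p = 0.162). Downstream KCNE3 averaged 9.77 ± 0.71 on day 5 and 9.17 ± 0.14 on day 14 (SD, n = 4 each), with differences of 0.93 (adjusted p = 0.113) and 0.45 (adjusted p = 0.59).

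KCNE3 had 4 probes, of which the second brightest also rose at the anastomosis on day 5 (0.99 ± 0.27, adjusted p = 0.0207). The other 2 differed by 0.10 and 0.31 and were not called. KCNE1, whose protein slows the opening of KCNQ1 channels, was lower in 4 of 4 replicates on day 5 at both sites (-1.01 and -1.03, each with an SE of 0.65), which did not pass the test, and its dimmer probe differed by 0.02 and 0.04. KCNE2, and KCNIP1, the gene of a calcium-binding partner of Kv4 pores, differed from control by at most 0.19 in size.

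**Figure D2:**
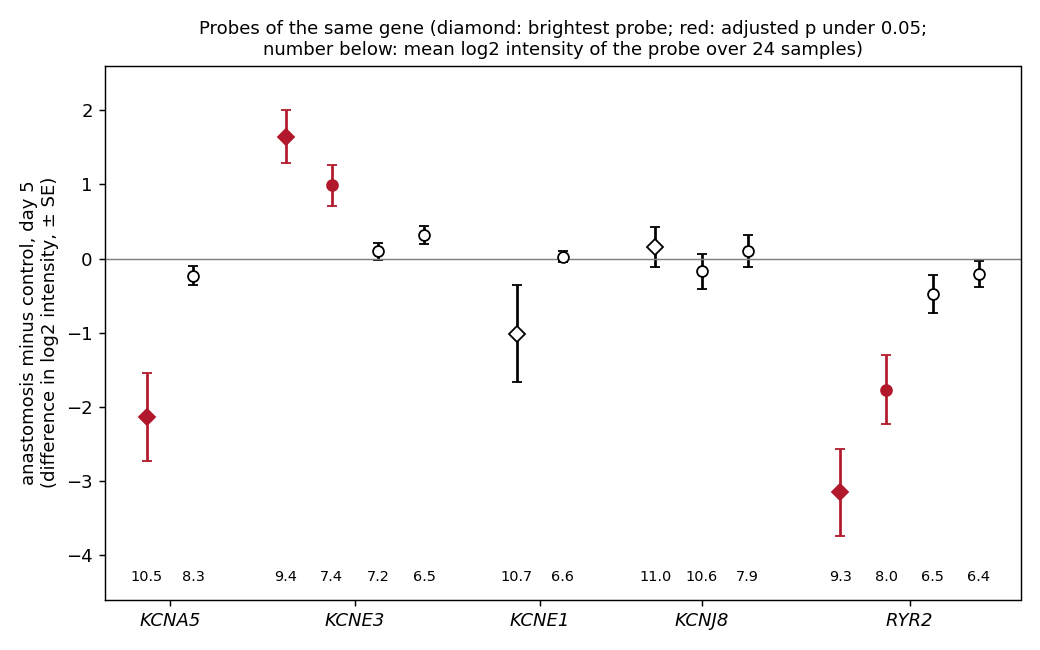
Difference between anastomosis and control on day 5 (y axis, log2 intensity, ± SE) for each tested probe of 5 genes, from the brightest probe (diamond) to the dimmest; the number under a point is the mean log2 intensity of the probe over the 24 samples. The KCNA5 probes gave -2.14 and -0.23, the KCNE3 probes 1.64, 0.99, 0.10 and 0.31, and the RYR2 probes -3.15, -1.77, -0.48 and -0.21, and the 3 KCNJ8 probes 0.16, -0.17 and 0.11.

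The calcium-activated and inward rectifier genes gave 0 calls by limma in the 4 comparisons with the control; KCNMA1 or KCNN3 was at an unadjusted p under 0.05 in 3 of them, 1 gene in each. KCNMA1, the gene of the large-conductance (BK) pore that counters calcium entry in vascular smooth muscle, was dim, with 13 of 24 samples well above background. It averaged 6.41 ± 0.19 at the anastomosis and 6.37 ± 0.20 downstream on day 5, against 6.79 ± 0.19 in the controls (SD, n = 4 each), and the differences of -0.39 and -0.43 did not pass the test (adjusted p = 0.121 for both). KCNN4, which encodes the intermediate-conductance channel of endothelium and of activated immune cells, varied widely within groups: 10.96, 8.46, 7.15 and 9.38 at the anastomosis on day 14, against 9.75, 6.94, 9.95 and 7.95 in the controls. Its differences ran from -0.89 to 0.35, each with an SE of 0.82.

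KCNN3 encodes the small-conductance channel SK3, which in endothelium helps relax the vessel wall. On day 14 it had 6.74, 6.40 and 7.54 in replicates 2, 3 and 4 of the anastomosis, with replicate 1 between the first and the last of these, against 6.29, 6.32, 6.33 and 6.38 downstream. These groups did not overlap, and the difference of 0.59 ± 0.15 had an unadjusted p of 0.00156 and an adjusted p of 0.156, so it was not called. Against the control the anastomosis was higher by 0.37 ± 0.15 on day 14, which did not pass the test (adjusted p = 0.138), and by 0.55 without anastomosis replicate 3, which did (adjusted p = 0.0215). Its probe was well above background in 4 of 4 anastomosis samples, 2 of 4 downstream samples and 2 of 4 controls of that day. KCNJ8, the gene of the Kir6.1 pore of ATP-sensitive potassium channels, had means between 10.78 and 11.22 in the 6 groups and its 4 site differences between 0.10 and 0.21, with an SE of 0.27. KCNJ5, the gene of a G protein-gated inward rectifier, differed from control by -0.11 to 0.20.

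Of the 5 voltage-gated calcium channel genes, CACNA1D was called higher on day 14 and 2 auxiliary subunits lower on day 5, each at the anastomosis. CACNA1D encodes Cav1.3, an L-type pore that opens at more negative potentials than Cav1.2. On day 14 it had 8.70, 9.70, 9.82 and 8.37 at the anastomosis and 8.43, 8.12, 8.29 and 8.16 downstream, against 7.63, 6.92, 7.04 and 6.90 in the controls. Both graft sites lay above all controls. The anastomosis was 4.07-fold higher (2.02 ± 0.27, adjusted p = 0.00138), and this call held in all 4 leave-outs (1.77 to 2.34, adjusted p up to 0.0318); the downstream difference of 1.13 ± 0.27 missed the threshold (adjusted p = 0.0624).

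On day 5 CACNA1D stood at 8.27, 8.26, 7.96 and 8.07 at the anastomosis and 8.59, 8.80, 7.91 and 7.50 downstream, against 7.88, 7.51, 6.81 and 7.27 in the controls. It was higher in 4 of 4 replicates at both sites, by 0.77 (adjusted p = 0.0541) and 0.83 (adjusted p = 0.0661), neither of which was called. Without anastomosis replicate 3 of day 14, which enters the shared estimate of the spread, the differences of the anastomosis on day 5 (adjusted p = 0.0384) and of the downstream vein on day 5 (adjusted p = 0.0496) and day 14 (adjusted p = 0.0476) were called. Counting this leave-out, 7 alternative settings called the anastomosis difference on day 5. For the downstream vein 5 did so on day 5 and 5 on day 14, median centring and the deposited values among them in each case. Between anastomosis and downstream vein on day 14 the difference was 0.89 (adjusted p = 0.183), and the change of the anastomosis difference between days was 1.25 (adjusted p = 0.394). The second CACNA1D probe was well above background in 2 samples and was not tested, so the gene rests on 1 probe.

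CACNB2 and CACNA2D1 encode the beta-2 and the alpha-2-delta-1 subunit, which bring the calcium channel pore to the membrane. CACNB2 had 6.16, 5.79, 6.16 and 6.07 at the anastomosis on day 5, against 6.65, 6.27, 7.49 and 7.44 in the controls; the groups did not overlap, and it fell 1.88-fold (-0.91 ± 0.23, adjusted p = 0.0113). Its probe was well above background in 2 of these 4 anastomosis samples and 3 of the 4 controls, so the size of the fall rests in part on values near background. Its controls were split by replicate, with replicates 3 and 4 higher, and without replicate 4 the call was lost (-0.76, adjusted p = 0.132). CACNA2D1 was split in the same way in every group: 8.81, 8.59, 10.60 and 10.19 at the anastomosis on day 5, against 9.26, 9.32, 11.23 and 10.89 in the controls. Within each replicate the anastomosis was lower, by 0.63 ± 0.20 on average (adjusted p = 0.0405), a difference that only the comparison within replicates shows, that was lost in each of the 4 leave-outs (-0.69 to -0.60, adjusted p up to 0.182), and that was -0.09 with median centring.

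CACNB4, the gene of the beta-4 subunit, and CACNG1, that of a gamma subunit first known from skeletal muscle, were not called in any comparison. CACNB4 averaged 7.82 ± 0.51 at the anastomosis on day 14 and 7.03 ± 0.24 on day 5, and 7.95 ± 0.43 against 7.24 ± 0.05 downstream (SD, n = 4 each). These day differences of 0.78 and 0.70 did not pass the test (adjusted p = 0.417 and 1).

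Among the calcium release channels, RYR2 and RYR3 fell, and RYR1 and ITPR1 were not called. RYR2 encodes the release channel best known from heart muscle, which in smooth muscle also gives the local calcium sparks that open BK channels. On day 5 it had 7.05, 7.38, 8.19 and 7.14 at the anastomosis and 9.63, 8.29, 7.50 and 7.39 downstream, against 10.08, 11.25, 11.14 and 9.92 in the controls. Both graft sites lay below all controls. The anastomosis was 8.91-fold lower (-3.15 ± 0.58, adjusted p = 0.00227) and the downstream vein 5.26-fold lower (-2.39 ± 0.58, adjusted p = 0.0247).

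On day 14 RYR2 was at 8.79, 9.22, 10.45 and 7.73 at the anastomosis and 10.43, 10.78, 9.32 and 9.53 downstream, against 10.83, 9.40, 11.37 and 10.68 in the controls. The groups overlapped, and the differences of -1.52 (adjusted p = 0.117) and -0.55 (adjusted p = 0.709) were not called; without control replicate 2 the anastomosis difference was -2.07 (adjusted p = 0.0385). The change of the difference between days did not pass the test either (1.63 for the anastomosis, adjusted p = 0.614, and 1.84 downstream, adjusted p = 0.652). The anastomosis call on day 5 held in all 4 leave-outs (-3.28 to -2.92), and the downstream call was lost without replicate 2, 3 or 4 (-3.04 to -1.98, adjusted p up to 0.176).

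A second RYR2 probe also fell at the anastomosis on day 5 (-1.77 ± 0.46, adjusted p = 0.0153) and was lower downstream without passing the test (-1.46, adjusted p = 0.0646). The 2 dim RYR2 probes, well above background in 13 and 11 samples, differed by -0.48 and -0.21 and were not called.

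RYR3, the gene of the third ryanodine receptor, had 7.26, 6.96, 5.85 and 6.30 at the anastomosis on day 14, against 9.04, 6.80, 8.53 and 8.41 in the controls. Replicate 2 went the other way, its control being the lowest of the group, and the groups overlapped. RYR3 was lower in 3 of 4 replicates and fell 3.04-fold (-1.60 ± 0.42, adjusted p = 0.0296). The call was lost without replicate 1, 3 or 4 (-2.19 to -1.24 over the leave-outs, adjusted p up to 0.224) and without anastomosis replicate 3 alone (-1.37, adjusted p = 0.0734). On day 5 RYR3 was lower in 4 of 4 replicates at the anastomosis (-0.84, adjusted p = 0.183). RYR1 was near background, with means of 6.23 to 6.44 in the 6 groups. ITPR1, the gene of an inositol trisphosphate receptor that releases calcium after receptor signals, differed by -0.50 to -0.21, each with an SE of 0.23, and was not called.

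TRPM7, which encodes a channel for magnesium and calcium fused to a kinase, was well above background in all 24 samples and averaged 9.48 to 9.73 in the 6 groups; its site differences ran from -0.23 to 0.19 and none was called. Of the chloride channel and anoctamin genes, ANO6 fell. It encodes TMEM16F, a calcium-activated protein that moves phospholipids between the leaflets of the membrane and also passes ions. On day 14 it had 8.12, 7.83, 8.03 and 8.08 at the anastomosis, against 9.81, 8.42, 9.69 and 8.86 in the controls, with no overlap (2.26-fold lower, -1.18 ± 0.22, adjusted p = 0.00779). Downstream on day 5 it had 8.66, 8.50, 8.32 and 8.03, against 8.69, 9.68, 9.45 and 9.02, again with no overlap although replicate 1 was close to its control (1.78-fold lower, -0.83 ± 0.22, adjusted p = 0.036).

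The other 2 differences of ANO6 pointed the same way, at -0.49 for the anastomosis on day 5 (adjusted p = 0.148) and -0.92 downstream on day 14 (adjusted p = 0.0704). Without control replicate 2 of day 14 the downstream difference was -1.10 and was called (adjusted p = 0.0293). The day 14 call was lost without replicate 3 or 4 (-1.37 to -1.01, adjusted p up to 0.0768) and the downstream call without replicate 2, 3 or 4 (-1.10 to -0.71, adjusted p up to 0.219). With just the groups compared both calls were lost, and the downstream call also with median centring or without a block for replicates. CLIC1, the gene of an abundant protein that can form chloride channels in membranes, had 11.06, 10.27, 10.13 and 11.26 at the anastomosis on day 5, against 8.97, 10.13, 9.98 and 9.90 in the controls; the groups did not overlap, and the difference of 0.94 ± 0.54 was not called (adjusted p = 0.262). ANO10 differed by -0.25 to -0.14.

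**Figure D3:**
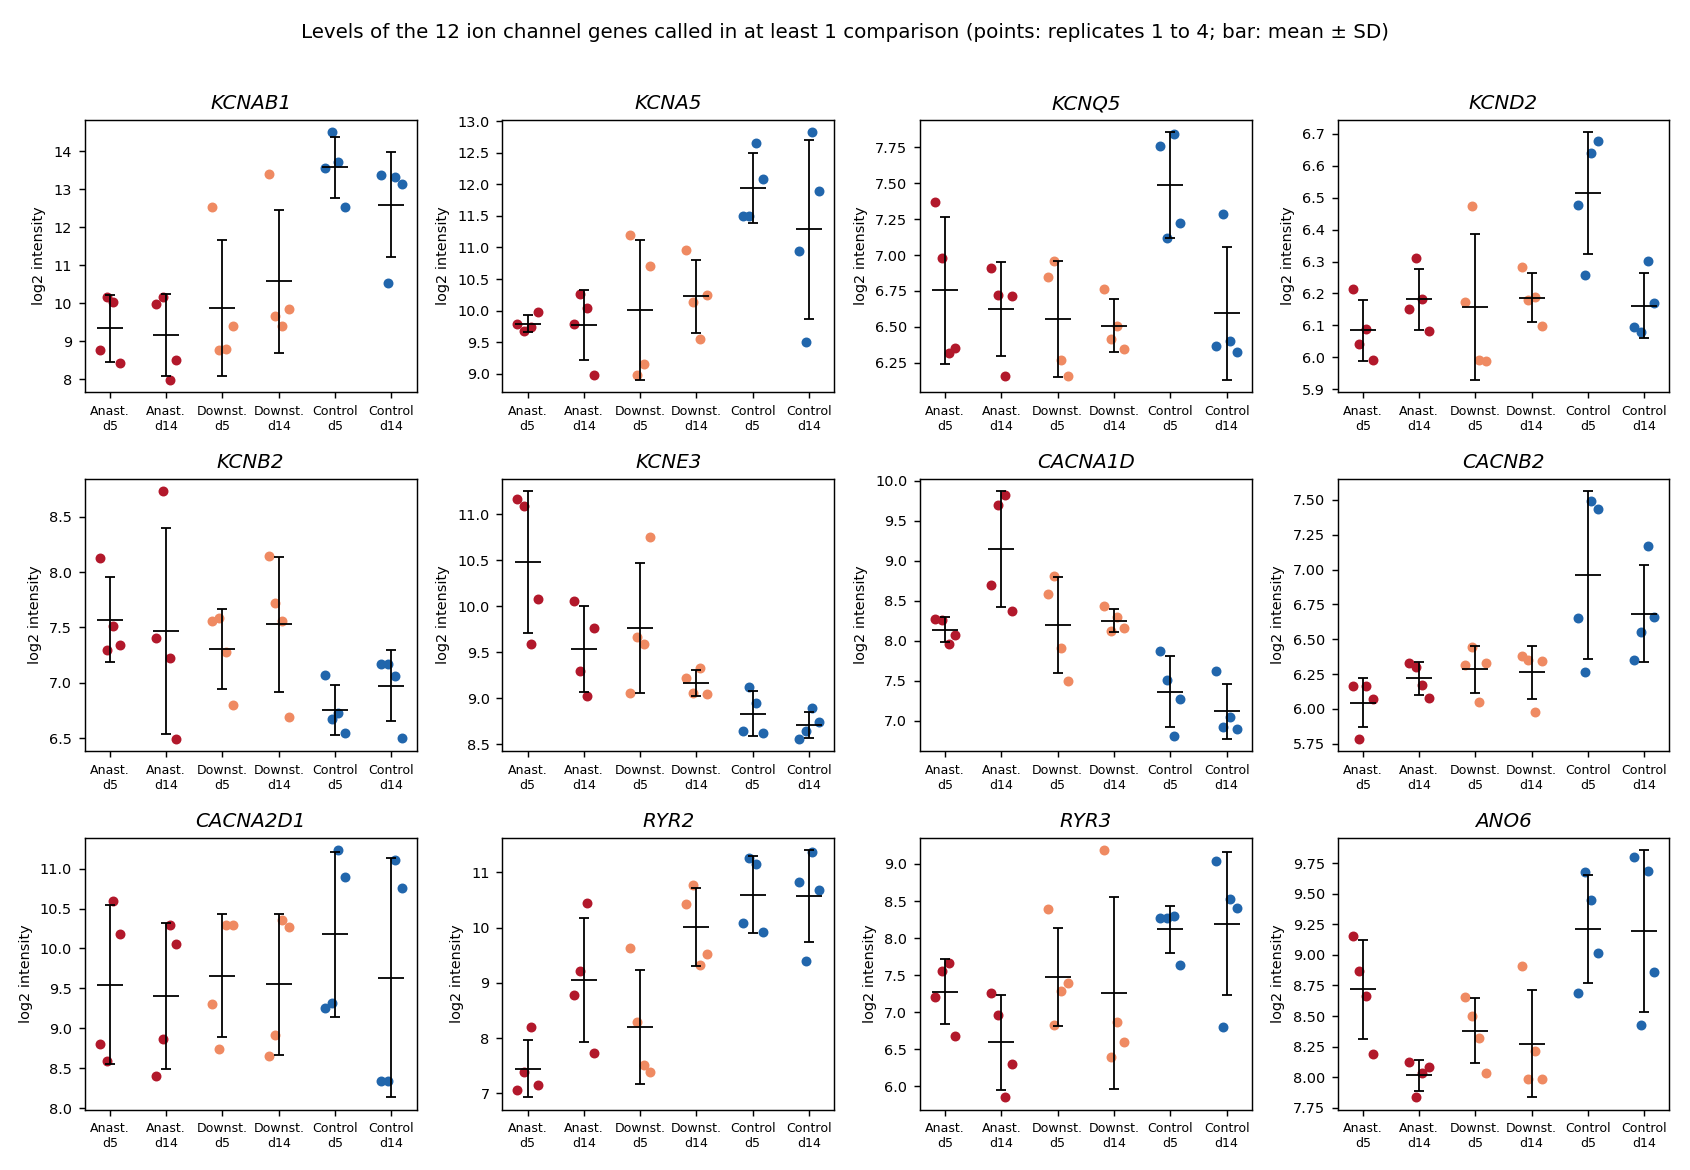
Log2 intensity (y axis) of the 12 genes called in at least 1 comparison, in 4 samples of each of the 6 groups (x axis; points in the order of replicates 1 to 4, bars mean ± SD). KCNAB1 and RYR2 lie below the day 5 controls at both graft sites, CACNA1D lies above the controls at both sites on day 14, and downstream replicate 1 holds KCNAB1 values of 12.54 and 13.40 on days 5 and 14.

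Between anastomosis and downstream vein limma called 0 of 33 on day 5 and 0 of 33 on day 14, and 0 of all probes, with 1 (KCNA2) and 3 channel genes at an unadjusted p under 0.05. On day 14 these 3 were KCNN3, CACNA1D and KCNJ5, and without anastomosis replicate 3 of day 14 limma called 1 channel gene and 720 of all probes there. Of the change between days in the site differences from control, 0 of 33 were called for the anastomosis and 0 of 33 downstream, with 4 and 3 at an unadjusted p under 0.05, and 0 of all probes were called. Within a site, day 14 against day 5 gave 0 channel genes at the anastomosis, where 0.00553% of all probes were called (0.00277% higher and 0.00277% lower), 0 downstream and 0 in the controls, where no probe was called, with 5, 2 and 2 genes at an unadjusted p under 0.05. A gene called on 1 day or at 1 graft site is therefore not shown to differ between days or between the graft sites.

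All 17 calls kept their direction within replicates 1 and 2 and within replicates 3 and 4, which had been quantified with different protocols. Since the calls were made on these same 4 replicates, a shared direction in both parts is no independent check of them. Replicates 3 and 4 alone gave 16 of the 17 calls and replicates 1 and 2 alone gave 0, where limma called 2 of all probes for the anastomosis on day 5. For the anastomosis on day 5, KCNAB1 differed by -3.90 in replicates 3 and 4 and by -4.55 in replicates 1 and 2, RYR2 by -2.86 and -3.45, KCNA5 by -2.51 and -1.77, and KCNE3 by 1.05 and 2.24. KCNE3 was the call not made in replicates 3 and 4 (adjusted p = 0.129). In the same order KCNB2 differed by 0.79 and 0.84, CACNA2D1 by -0.67 and -0.59, CACNB2 by -1.35 and -0.48, KCNQ5 by -1.20 and -0.26, and KCND2 by -0.62 and -0.24. For the anastomosis on day 14, KCNAB1 differed by -4.97 and -1.88, RYR3 by -2.40 and -0.81, CACNA1D by 2.13 and 1.92, and ANO6 by -1.22 and -1.14. Downstream on day 5, KCNAB1 differed by -4.01 and -3.37, RYR2 by -3.08 and -1.71, KCNQ5 by -1.32 and -0.54, and ANO6 by -1.05 and -0.61.

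Contractile genes of smooth muscle fell at both sites on day 5. Of 9 contractile genes with a probe (ACTA2, CNN1, SMTN, MYLK, DES, PLN, SYNPO2, MYOCD and LDB3), 8 fell at the anastomosis on day 5, 4 fell downstream on day 5, and limma called 0 on day 14, where 6 at the anastomosis and 1 downstream had an unadjusted p under 0.05. Their median difference was -2.13 at the anastomosis and -1.87 downstream on day 5, and -1.33 and -0.88 on day 14. Of all probes tested, 10.3% were called lower at the anastomosis and 4.98% downstream on day 5, and 4.10% and 0.268% on day 14. The median level of the list was 12.72 to 13.72 at the anastomosis and 12.53 to 13.24 downstream on day 5, against 13.63 to 14.53 in the controls. On day 14 it was 12.81 to 13.05 at the anastomosis and 12.14 to 14.01 downstream, against 11.91 to 14.22 in the controls. On day 14 the samples in which KCNAB1 departed from its group also departed in the contractile median. Downstream replicate 1 had 14.01, against 12.14 to 12.92 in the others of its group, and control replicate 2 had 11.91, the lowest of all 24 samples. On day 5 downstream replicate 1 did not stand apart in the contractile median. It had 13.24 and replicate 4 had 13.17, while their KCNAB1 values were 12.54 and 9.41. The part of smooth muscle content in the falls was not tested.

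**Figure D4:**
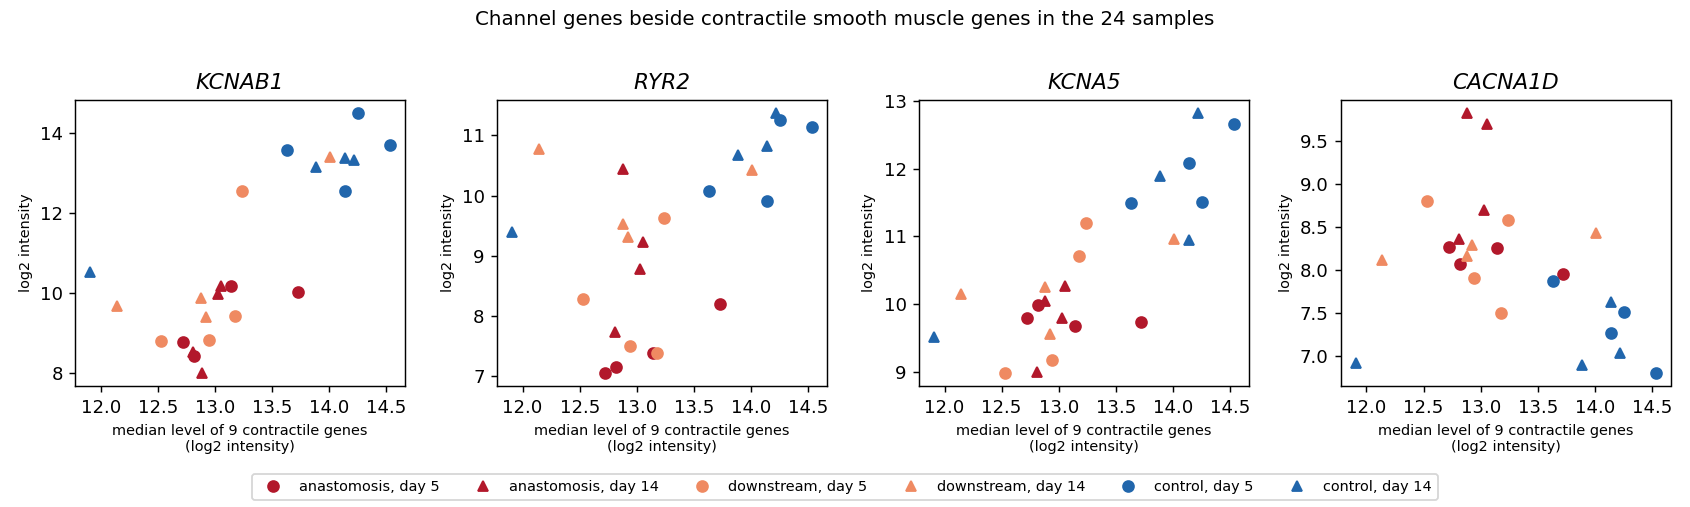
Log2 intensity of KCNAB1, RYR2, KCNA5 and CACNA1D (y axes) against the median log2 intensity of 9 contractile smooth muscle genes (x axis) in the 24 samples, by site (colour) and day (shape). The KCNAB1 values of 12.54 and above all came from samples with a contractile median of 13.24 or more, while anastomosis replicate 3 of day 5, with a median of 13.72, had 10.03; the day 14 control with a median of 11.91 had 10.52 of KCNAB1, 9.50 of KCNA5 and 6.92 of CACNA1D.

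KCNE3 and KCNB2 rose at the anastomosis on day 5, where 8 of 9 contractile genes fell, and CACNA1D rose there on day 14, where limma called 0 of 9 (6 at an unadjusted p under 0.05). Some markers of other cells, and cell cycle genes, were higher there too. At the anastomosis on day 5, 3 of 6 endothelial genes, 2 of 5 monocyte and macrophage genes and 4 of 4 cell cycle genes were called higher; on day 14 it was 2 of 6, 3 of 5 and, by limma, 0 of 4, with 1 at an unadjusted p under 0.05. The median differences of these lists were 0.87, 0.67 and 2.88 on day 5, and 0.49, 1.22 and 0.72 on day 14. Of all probes tested, 9.75% were called higher and 10.3% lower at the anastomosis on day 5. The shares on day 14 were 4.77% and 4.10%. On day 14 the macrophage median level ran from 13.05 to 13.48 at the anastomosis, against 11.61 to 12.48 in the controls, with no overlap, and the endothelial one from 11.19 to 11.92, against 9.62 to 12.28, with overlap. Of 9 skeletal muscle genes 2 were lower at the anastomosis on each day; of 4 T cell genes 1 was higher on day 14, of 4 Schwann cell and nerve genes 1 was lower on day 5, and limma called 0 of 6 adipocyte genes on either day (1 and 0 at an unadjusted p under 0.05), with median differences of -1.04 and 0.52. The part of these cells, and of cell division, in the rises was not tested.

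Other ion transport genes, taken from lists of pumps, exchangers and other channels, moved in both directions. Of 8 calcium store and pump genes, 2 rose and 2 fell at the anastomosis on day 5, beside 9.75% of all probes higher and 10.3% lower. PLN, which encodes phospholamban, the inhibitor of the sarcoplasmic calcium pump, fell by 3.37 ± 0.66 (adjusted p = 0.00325; it is also 1 of the 9 contractile genes). STIM2, the gene of a calcium sensor of the store, rose by 0.45 ± 0.08 (adjusted p = 0.00175) and FKBP1A, whose protein binds ryanodine receptors, by 0.45. STIM2 was called higher in all 4 comparisons with the control, by 0.36 at the anastomosis on day 14, 0.41 downstream on day 5 and 0.59 downstream on day 14.

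Of 6 exchanger and sodium pump genes, limma called 0 at the anastomosis on day 5 (0 at an unadjusted p under 0.05) and 1, as lower, on day 14, beside 4.10% of all probes lower on day 14. Downstream it called 0 on day 5 and 0 on day 14, with 0 and 2 at an unadjusted p under 0.05. Of 11 other channel genes tested, 2 rose and 1 fell at the anastomosis on day 5, beside 9.75% of all probes higher and 10.3% lower. The water channel gene AQP1 fell by 2.22 ± 0.49 (adjusted p = 0.00599). VDAC1, the gene of the pore of the outer mitochondrial membrane, rose by 0.88, and GJA4, the gene of the endothelial gap junction protein connexin 37, rose by 0.77. GJA4 was called higher in all 4 comparisons, by 0.95 at the anastomosis on day 14, 0.93 downstream on day 5 and 1.03 downstream on day 14.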

How the data were processed

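Total RNA of 24 vein samples was labelled in 2 colours and hybridised to 16 arrays. The deposited scanner files hold intensity values, the mean foreground and median background of each spot, and per the file headers they were quantified with Feature Extraction 10.5.1.1. The authors also deposited a table of log2 values; no source used here gives how it was made. Here each channel was corrected with normexp (offset 50), normalised by loess within and Aquantile between arrays in limma 3.58.1 (R 4.3.3), and read as the log2 intensity of the sample's own dye; outlier spots were dropped and repeated spots averaged. The green channel of the 8 downstream arrays has no sample in the labels and was not used.

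Probes well above background in at least 4 of 24 samples were tested (36140 of 43603). Site differences and their change between days came from lmFit and eBayes with all 24 samples in a single model. It held a block for each replicate number of a day (8 blocks). Within each day it also held a term for the anastomosis and a term for the downstream vein, each against the control (12 residual degrees of freedom). The blocks were used because 8 arrays each carry an anastomosis sample and its control of equal number. Downstream samples are on the other 8. Days were compared in the 8 samples of a site without a block. In each of 12 comparisons the two-sided p-values got a Benjamini-Hochberg adjustment across every probe tested. Those of site differences rest on how these differences vary between blocks, pooled over all groups. Those of days within a site rest on the spread between the biological replicates of that site. Samples of the same number and day deviated together: the correlation was 0.215 to 0.812 in the 8 pairs on an array and 0.174 to 0.751 in the 16 other pairs. On simulated data for the anastomosis and control of day 5 (36140 probes), 62 of 100 probes changed by 1 on the log2 scale and 96 of 100 changed by 2 were recovered, with 4 false calls. All other probes were left unchanged there, with independent noise. In the real comparison 20.0% of all probes were called, so these rates need not hold for it.

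The genes and lists were chosen with earlier results of these data known. The text names the called genes (up to 12 in each direction in a comparison with the control, 5 in the others), the genes below the filter, and a list of 40 vascular channel genes, of which 19 had a probe by the symbol rule and 17 were tested; the list of blood cell genes had no probe and is not analysed here. A few genes and probe sequences are not reported here. Alternatives changed the background correction, dye normalisation, filter, probe choice, block, samples, scan and slide; 2 leave-outs of single samples were chosen after seeing the data. The slide as a random block was fitted on all 24 samples, since a site alone gives no slide correlation.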

Additional observations from a re-analysis of the deposited data

Results flagged for a closer look

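In 20 named genes and 6 groups of 4, 12 of 120 sets of 4 values had a sample far from the other 3 by Dixon's test. For independent sets chance gives this in about 1 of 20. These sets share the same 24 samples, and the genes were in part chosen because they were called. The rate over all probes was not computed, so the count is not shown to be particular to channel genes. KCNAB1 was far above its group in downstream replicate 1 on day 5 (12.54, others 8.78 to 9.41) and on day 14 (13.40, others 9.39 to 9.86), and far below it in control replicate 2 of day 14 (10.52, others 13.14 to 13.37). RYR3 was high in downstream replicate 1 of day 14 (9.19, others 6.40 to 6.86) and low in control replicate 4 of day 5 (7.64, others 8.27 to 8.30). KCNAB2 was low in anastomosis replicate 3 of day 14 (11.14, others 11.76 to 11.86) and high in downstream replicate 3 of that day (12.22, others 10.88 to 11.01). KCNMA1 was high in downstream replicate 1 of day 14 (6.56, others 6.20 to 6.25), with 2 of the 4 samples well above background, and KCNQ5 was high in control replicate 2 of day 14 (7.29, others 6.32 to 6.40). ITPR1 was high in downstream replicate 4 of day 14 (7.37, others 6.80 to 6.85). CACNB2 was low in downstream replicate 3 of day 14 (5.98, others 6.34 to 6.38), and KCNB2 was low in control replicate 4 of day 14 (6.50, others 7.06 to 7.17). Control replicate 2 and downstream replicate 1 of day 14 account for 2 and 3 of the 12. In the main model the tests between days, and those between anastomosis and downstream vein, called no channel gene.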

How the results depend on the processing

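The main counts of channel genes called were 9 and 4 for anastomosis against control on days 5 and 14, and 4 and 0 for downstream vein against control. In the same order, median centring gave 11, 12, 10 and 9, the log2 values the authors deposited 12, 7, 11 and 3, no background correction 9, 5, 7 and 1, and the processed signals of Feature Extraction 9, 6, 7 and 1. Of all probes, the main model called 7232, 3205, 3025 and 330. Median centring called 12367, 14827, 9554 and 10881 of them, and the deposited values 9544, 4077, 7292 and 624. No background correction called 8159, 4053, 3971 and 497, and the processed signals 7967, 3248, 3629 and 226. Dropping the filter, asking for 12 samples well above background, or averaging the probes of a gene gave 9, 4, 4 and 0 channel genes. The set was not the same with 12 samples. KCND2, well above background in 5, was then not tested, and CACNA1D was called at the anastomosis on day 5 instead. Without the replicate block, which pairs samples of the same number and day, the counts were 6, 2, 1 and 0 (2595, 597, 360 and 14 of all probes). Of the 17 calls 9 were kept. Those lost were CACNA2D1, KCNB2 and KCNQ5 at the anastomosis on day 5, KCNAB1 and RYR3 there on day 14, and ANO6, KCNAB1 and KCNQ5 downstream. With just the groups compared the counts were 14, 0, 4 and 0 (10433, 62, 3693 and 0 of all probes), and 10 of the 17 calls were kept. Replicates 3 and 4 alone gave 8, 10, 9 and 4 (4406, 3512, 3743 and 1898 of all probes). With replicates 1 and 2 alone limma called 0, 0, 0 and 0 channel genes, and 2, 1, 0 and 0 of all probes. Leaving out a replicate number, or a single sample, gave 3 to 10, 1 to 7, 0 to 6 and 0 to 1, and 0 to 1 for anastomosis against downstream on day 14. Of all probes these leave-outs called 2793 to 7743, 149 to 4012, 3 to 4936 and 4 to 826, and 0 to 720. The single samples were control replicate 2 of day 14 (9, 6, 5 and 1) and anastomosis replicate 3 of day 14 (10, 3, 5 and 1). The other comparisons gave 0 under these settings, except 4 between days at the anastomosis in the deposited table. The replicate block between days, scan as a block and slide as a random block (correlation 0.539) gave 0. None of the 17 calls reversed under any of these 17 settings, which all reuse the samples that gave the calls. The causes of lost calls were not tested. Genes near background, such as KCND2 and KCNMA1, are limited by their signal.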

Other observations

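Besides the genes taken by symbol, 23 probes were described as ion channels or channel subunits without such a symbol; they were chosen by description, and 22 were well above background in at least 4 samples. At the anastomosis on day 5, 3 of these 22 rose and 2 fell, beside 9.75% and 10.3% of all probes. A probe described as TRP channel subfamily V member 4, a calcium channel of endothelium and smooth muscle that answers to stretch and swelling, averaged 8.54 ± 0.96 at the anastomosis against 7.03 ± 0.64 in the controls (SD, n = 4 each), higher by 1.51 ± 0.25 (adjusted p = 0.00121). It was also called on day 14 (1.36, adjusted p = 0.0063) and downstream on day 5 (1.18, adjusted p = 0.0141), but not downstream on day 14 (0.66, adjusted p = 0.222). A probe described as chloride channel protein 4 rose at the anastomosis on day 5 (8.17 ± 0.23 against 7.07 ± 0.16 in the controls, adjusted p = 0.00608) and by 0.91 downstream (adjusted p = 0.0338), and one described as a gamma-like calcium channel subunit rose by 0.55 at the anastomosis on day 5 (adjusted p = 0.032) and by 0.71 on day 14 (adjusted p = 0.0198).

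A probe described as a calcium channel subunit alpha 1G-H, a T-type pore, averaged 11.26 ± 0.96 at the anastomosis on day 5 and 11.80 ± 0.83 downstream, against 13.93 ± 0.72 in the controls (SD, n = 4 each). It fell by 2.68 ± 0.56 at the anastomosis (adjusted p = 0.00455) and its downstream difference was -2.14 ± 0.56 (adjusted p = 0.0326), and was not called on day 14. A probe described as short TRP channel 1 fell by 1.37 ± 0.32 at the anastomosis on day 5 (adjusted p = 0.00887), and downstream its difference was -1.09 (adjusted p = 0.0498). A probe described as the alpha-1 subunit of the calcium-activated potassium channel, well above background in all 24 samples, differed by -0.24 to 0.05 and was not called, as was the dim KCNMA1 probe.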
